A study of Mus musculus with 41 samples.

Results

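*Trp63* encodes the transcription factor p63 of the p53 family. It was taken with 50 kb to each side (chr16:25633763-25942102, mm10, 308 kb), and every peak of 16 pooled CUT&RUN (CNR) lists that overlapped this window by at least 1 bp was a member. In CNR a nuclease tied to an antibody frees the DNA around a chromatin protein for sequencing. The lists held between 1 and 25 peaks each in the window, 172 in all, and peaks that overlapped or touched formed 42 distinct elements. *Trp63* was 1 of 21884 protein-coding genes for which peaks were counted in the same way.

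The skin lists came from epidermal stem cells (EpdSCs) sorted from back skin of male CD1 mice as CD31-, CD45-, CD117- and CD140a-negative, CD49f-high, CD34-negative and Ly6A-high cells. All mice carried K14rtTA, a doxycycline (DOX)-dependent activator driven by the *Krt14* promoter of basal keratinocytes, and TRE-myc-Sox9, a MYC-tagged *Sox9* transgene that it switches on. SOX9 was mapped before DOX (D0, postnatal day 21) and at weeks (W) 1, 2, 6 and 12 of DOX, and MLL3/4 at D0, W1 and W2. W1 mice were 28, W2 mice 35 and W6 mice 63 postnatal days old, and W12 skin had been grafted onto immunocompromised mice, so age and grafting cannot be told apart from weeks of DOX. The culture lists came from keratinocytes with K14rtTA, grown from back skin, that carried TRE-myc-Sox9 (WT-SOX9), Sox9noTA (dTA-SOX9, without the transactivation domain) or Sox9noHMG (dHMG-SOX9, without the DNA-binding domain), put in by lentivirus per the study's methods. MLL3/4 and the MYC tag were mapped in all 3 lines with DOX at 1 µg/ml, and in the WT-SOX9 line also without it. Per the study's methods each list pooled 2 samples, although labels of the cultured samples name tracks of single replicates, so the spread between replicates is unknown and no test between lists was made. In cells sorted in bulk, fewer cells with a protein at a site and less of it per cell cannot be told apart.

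p63 is the factor on which stratified epithelia depend for their basal cells, and mice without it are born without epidermis. The gene is transcribed from alternative promoters. The upstream promoter gives long transcripts that encode TAp63, with an amino-terminal transactivation domain, and an internal promoter gives short transcripts that encode ΔNp63, the form that prevails in basal keratinocytes. SOX9 is a high-mobility-group factor of hair follicle stem cells that is silent in most of the interfollicular epidermis, and MLL3 and MLL4 are the methyltransferases that place monomethyl marks on lysine 4 of histone H3 at enhancers.

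In GENCODE vM21, 4 transcripts of *Trp63* start at 25683763 or 25683765 and 4 start 118 kb further on at 25801916, within intron 3 of the longest one, on the plus strand. Elements were numbered 1 to 42 along the chromosome, and exons and introns were counted in the longest transcript, which has 14 exons. Of the 42 elements, 3 lay upstream of the gene, 28 in the gene body and 11 downstream. SOX9 was found at 17 elements, MLL3/4 at 32 in skin and at 16 in culture, and the MYC tag at 12. A peak in 1 list only was the case at 14 elements, and 4 elements (13, 25, 26 and 42) had a peak in 10 or more lists.

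**Figure D1:**
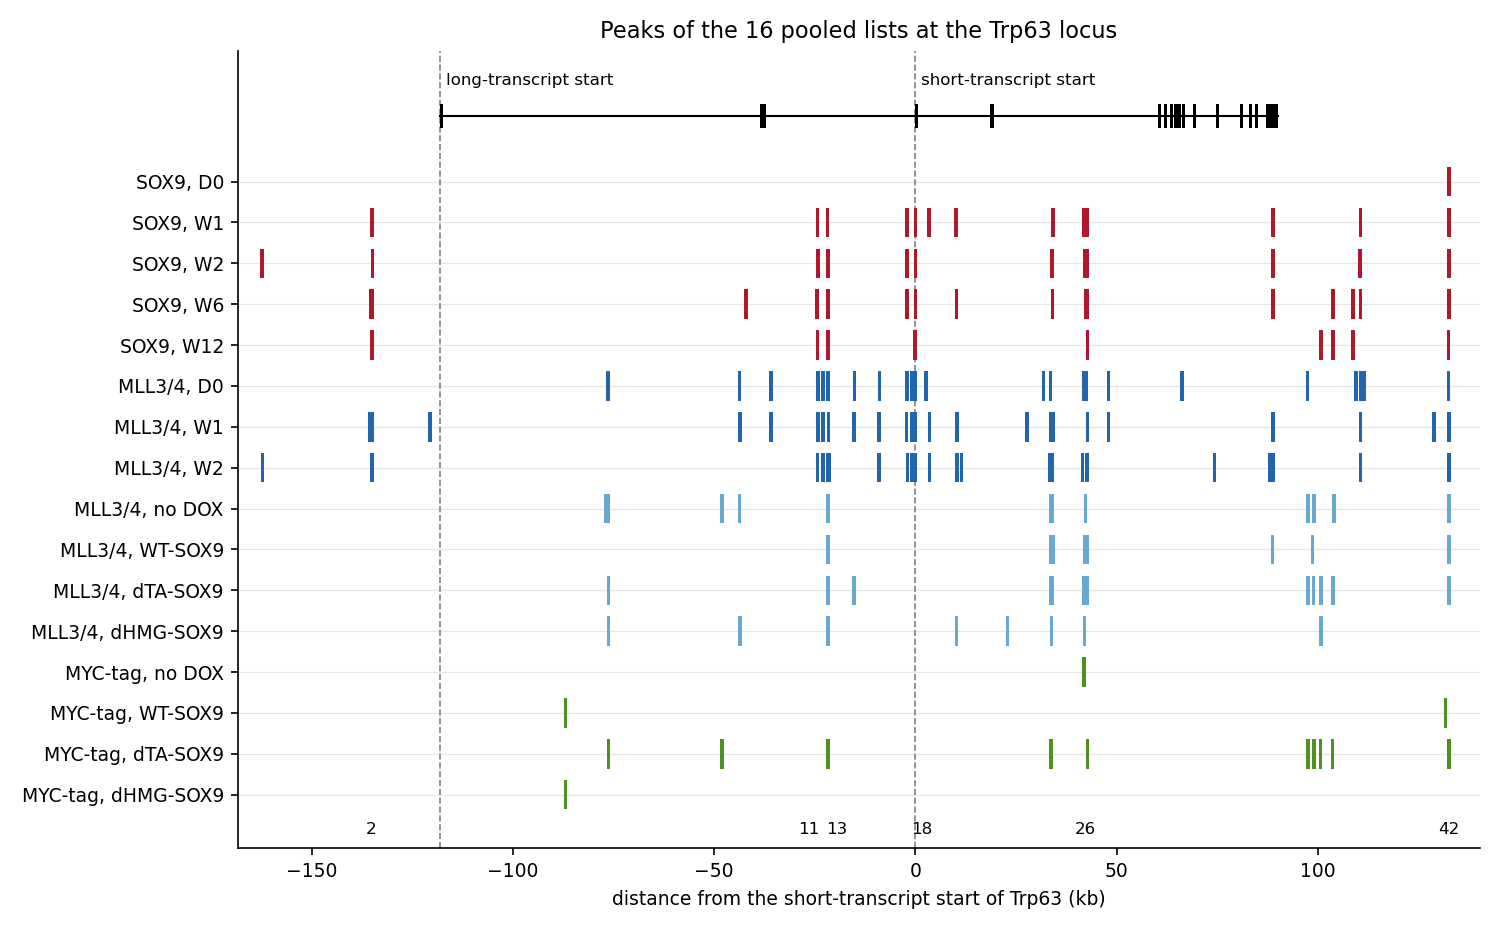
Peaks of each pooled list against the distance from the short-transcript start of *Trp63* in kb, with the exons of all 8 transcripts in black on top and the numbers of 6 elements at the bottom. SOX9 is red, MLL3/4 dark blue in skin and light blue in culture, the MYC tag green, and peaks narrower than 0.9 kb are drawn at that width. The 12 SOX9 peaks of W1 stand beside MLL3/4 peaks of W1, while the long-transcript start has no peak in any list.

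The sequences under the highest SOX9 maxima are shown first. Each is a window of 101 bases centred on the maximum of a SOX9 peak, read from the plus strand of GRCm38.p6. Capitals mark an AP1 word (TGACTCA, with TGAGTCA as its other form), a SOX word (CCATTGT, also CCTTTGT, then GCATTGT and finally GCTTTGT) or the shorter SOX core ATTGT, in either strand, the core having been chosen after the windows were seen. Element 2 lies 17.0 kb upstream of the long-transcript start (chr16:25666929-25667029, W2 maximum), element 11 in intron 3 at 24.4 kb upstream of the short-transcript start (chr16:25777680-25777780, W6), element 13 in intron 3 at 21.7 kb upstream (chr16:25780047-25780147, W2), element 26 in intron 4 with a pair of W2 maxima (chr16:25843748-25843848 and chr16:25844659-25844759) and element 42 downstream of the gene (chr16:25934422-25934522, W6). Element 9 in intron 1 (chr16:25759705-25759805, W6) is added as the one with a full SOX word.
element 2: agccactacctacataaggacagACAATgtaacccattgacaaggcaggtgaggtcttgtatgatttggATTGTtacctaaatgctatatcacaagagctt
element 9: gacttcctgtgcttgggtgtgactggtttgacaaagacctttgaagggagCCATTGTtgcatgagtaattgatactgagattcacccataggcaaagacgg
element 11: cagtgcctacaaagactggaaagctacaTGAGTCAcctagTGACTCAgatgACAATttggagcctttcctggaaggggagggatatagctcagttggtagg
element 13: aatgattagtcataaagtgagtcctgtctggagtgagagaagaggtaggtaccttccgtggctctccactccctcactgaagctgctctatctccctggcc
element 26, first maximum: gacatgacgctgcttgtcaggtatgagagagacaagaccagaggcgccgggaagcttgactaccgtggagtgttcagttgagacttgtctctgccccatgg
element 26, second maximum: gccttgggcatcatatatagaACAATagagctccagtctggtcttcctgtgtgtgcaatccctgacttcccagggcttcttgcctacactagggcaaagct
element 42: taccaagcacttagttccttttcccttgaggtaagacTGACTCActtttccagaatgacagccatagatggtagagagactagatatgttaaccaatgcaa

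A full SOX word stood within 50 bp of the SOX9 maximum at 1 of the 17 SOX9 elements, which was element 9. It was in 0 of 12 windows at W1, 0 of 12 at W2, 1 of 14 at W6 and 0 of 9 at W12, where 18.5%, 15.5%, 18.8% and 24.8% of all windows of those lists held it. The SOX core was in 5, 4, 7 and 3 of these windows, against 29.0%, 23.1%, 29.1% and 39.0% of all windows, and was found at elements 2, 9, 11, 20, 26, 31 and 36. In the window of element 2 it occurred on opposite strands, 25 bp to the left and 21 bp to the right of the maximum. AP1 words, the sites of JUN and FOS factors, were at SOX9 elements 11, 34 and 42. They were in 1 of 12 windows at W1, 2 of 12 at W2, 2 of 14 at W6 and 2 of 9 at W12, with 16.2%, 15.7%, 23.5% and 29.9% of all windows. In element 11 a pair of them stood 19 and 7 bp to the left of the maximum, next to a SOX core. GATA words (AGATAAC, with AGATAAG as its other form) were at SOX9 elements 19, 26 and 42. They were in 2 of 12, 0 of 12, 0 of 14 and 1 of 9 windows in the order W1, W2, W6 and W12, against 3.18%, 2.70%, 2.03% and 1.49% of all windows. RUNX words (AACCACA), in 2.06% to 3.43% of all windows from W1 to W12, and a strict form of the TP63 consensus were at 0 of the 17. All windows of the SOX9 lists from W1 to W12 held the latter in 0.0192% to 0.0804% of cases. A missing word says only that these letters are not in this window.

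The long-transcript start had no peak. No element overlapped it or came within 1 kb, and the nearest was element 3 (chr16:25681275-25681457), an MLL3/4 peak of W1 at 2306 bp upstream, with a total signal above 13.4% of that list. The short-transcript start was covered by element 18 (chr16:25801519-25802249), which had MLL3/4 in all 3 skin lists and SOX9 in all 4 lists after D0. Its SOX9 maximum was 2363, 2521, 1931 and 1930.25 RPKM in the order W1, W2, W6 and W12, where RPKM is reads per kb, scaled to the reads of the library, and a peak had to pass 1800 to enter the list. These are weak peaks for their lists, with 19.4%, 32.6%, 11.1% and 2.46% of the peaks of each list below them in total signal, and they rested on 41, 33, 46 and 42 fragments. All 4 exact 95% Poisson intervals overlapped, from 1695 to 3205 RPKM at W1 to 1391 to 2609 RPKM at W12. MLL3/4 coverage at element 18 has no common scale between lists. By total signal it stood above 73.2% of the list at D0, 62.7% at W1 and 17.9% at W2. In culture element 18 had no peak of MLL3/4 or the MYC tag in any of the 8 pooled lists, nor in the lists of replicate 1.

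Elements 16, 17 and 19 flank this start within intron 3. Element 16 (chr16:25799233-25800342), 2.13 kb upstream, carried SOX9 at W1 (2881 RPKM), W2 (2750.3) and W6 (2099) and MLL3/4 in all 3 skin lists, above 77.0%, 87.5% and 90.0% of each list at D0, W1 and W2. Element 17 had MLL3/4 only, in the same 3 lists and above 12.7%, 10.7% and 26.4% of them. Element 19, 3.14 kb downstream, had SOX9 at W1 alone (2535 RPKM) and MLL3/4 at D0, W1 and W2 above 33.7%, 68.8% and 65.0%. Its D0 peak of MLL3/4 did not overlap those of W1 and W2, whose centres lay 763 and 630 bp away, and the SOX9 peak joined them into 1 element.

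SOX9 was absent from the list at D0 except at element 42, and was then found at 12, 11, 14 and 9 elements in the W1, W2, W6 and W12 lists. These lists differ in size (15651, 18657, 20579 and 9745 peaks), and with as many peaks taken from each as W12 has, by total signal, the locus held 9, 8, 8 and 9 peaks, so no rise to W6 or fall at W12 was left. The peaks numbered 12, 12, 14 and 9, since element 26 held a pair at W2. SOX9 was at 6 elements (2, 11, 13, 18, 26 and 42) at every time from W1 to W12, and at 4 (16, 25, 31 and 38) at W1, W2 and W6 but not W12. Elements 1 (W2), 9 (W6), 19 (W1) and 34 (W12) had it at 1 time. Of the SOX9 peaks of W1, 10 of 12 overlapped one of W2, where 77.7% of all W1 peaks did. Of those of W6, 8 of 14 overlapped one of W12, where 39.7% of all W6 peaks did. The 8 that were also found at W12 had a median total signal above 81.1% of the W6 list and the other 6 above 26.9%.

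Element 2 (chr16:25666164-25667419) carried the highest SOX9 maximum of the locus at all 4 times, although elements 42 and 26 exceeded it in total signal at W1 and element 26 at W6. Its maximum was 8932 RPKM at W1 (7581 to 10454, exact 95% Poisson interval), 16273 at W2 (14161 to 18611), 11669.7 at W6 (10338 to 13125) and 7215 at W12 (6131 to 8437). It rested on 155, 213, 278 and 157 fragments. The W2 interval lay above those of the other 3 times, and the W1 and W12 intervals overlapped. The list medians of the maximum were 2708, 3132, 2729 and 2528 RPKM, and element 2 stood above 91.0%, 96.3%, 95.9% and 86.8% of the lists by total signal. The centres of the 4 maxima lay within 1 bp of each other. The intervals cover counting error at a position chosen as the maximum, not the spread between replicates.

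In the other elements with high maxima, the interval of the highest week overlapped that of at least 1 other week. Element 11 (chr16:25777185-25777918) had 3746, 5042, 7262 and 3723 RPKM in the order W1, W2, W6 and W12. Its W6 interval (6220 to 8429) lay above those of W1 (2891 to 4774) and W12 (2956 to 4627) and overlapped that of W2. Its 4 centres lay within 4 bp. Element 13 (chr16:25779632-25780882) had 3803, 5424, 3400.2 and 2022 RPKM, with the W12 interval (1469 to 2715) below those of W1 (2941 to 4839) and W2 (4236 to 6842), and its centres lay within 2 bp. Element 26 (chr16:25843274-25845033) had 4609.9 RPKM at W1, a pair of peaks of 6723 and 7105 at W2, then 6674 at W6 and 3309 at W12. Its W1, W6 and W12 maxima lay within 90 bp of the second W2 position, and the first, 911 bp to the left, was the maximum of a separate peak at W2 only, the W1 and W6 peaks spanning both positions.

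Element 42 (chr16:25933962-25934815), 42.3 kb beyond the end of the gene, was the only site of the locus in the D0 list of 792 SOX9 peaks. Its maximum was 2889.7 RPKM at D0, and in the order W1, W2, W6 and W12 it was 4725, 4584, 5499 and 2757.5 RPKM. The D0 interval (2335 to 3536) lay below those of W1 (3758 to 5865) and W6 (4598 to 6525) and overlapped those of W2 (3498 to 5900) and W12 (2104 to 3549). The D0 and W6 centres lay 16 bp apart, the AP1 word stood in the windows of both, and 45.3% of all windows of the D0 list held an AP1 word. The D0 list has no antibody control beside it here, so whether the D0 signal is SOX9 was not tested.

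**Figure D2:**
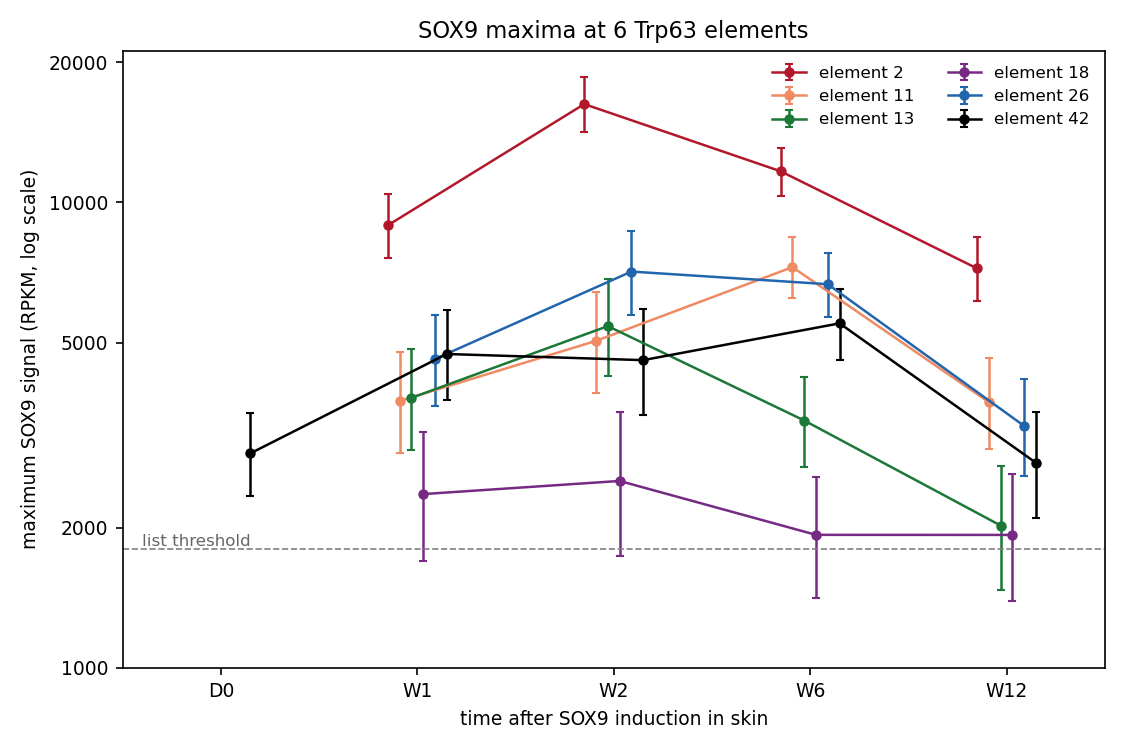
Maximum SOX9 signal in RPKM on a log axis at D0, W1, W2, W6 and W12 for the 6 elements found at every time after D0, with exact 95% Poisson intervals as bars and lines joining the times of an element. The dashed line is the list threshold of 1800 RPKM, and a missing point means no listed peak. Element 2 lies above the others at all 4 weeks, and only element 42 has a point at D0.

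The remaining SOX9 elements had maxima of at most 3630.3 RPKM. Element 31 (chr16:25890313-25891158) in the last exon had 3630.3 RPKM at W1, 3285 at W2 and 2393 at W6. Element 25 (chr16:25835184-25836356) in intron 4 had 1844, 2979.5 and 3610.04 RPKM at those weeks, and the W6 interval (2888 to 4458) lay above that of W1 (1261 to 2603). Element 38 downstream had 2074, 2139 and 2938 RPKM, with overlapping intervals. Elements 35 and 36, downstream of the gene, entered at W6 (2267 and 1973 RPKM) and were kept at W12 (2068 and 2160.04 RPKM). Neither had MLL3/4 in a skin list, but MLL3/4 was not mapped at W6 or W12. The single peaks were 2445 RPKM at element 1, 2057 at element 9, 2535 at element 19 and 2482 at element 34, and element 20 had 1844 RPKM at W1 and 1847 at W6.

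MLL3/4 at the locus was compared before and after induction in skin by asking which D0 peaks had no overlapping peak later (lost) and which later peaks had none at D0 (gained). At W1, 8 of 23 D0 peaks were lost (34.8%) and 10 of 25 peaks were gained (40.0%), where 48.5% of all D0 peaks were lost and 39.7% of all W1 peaks gained. At W2, 11 of 23 were lost (47.8%) and 9 of 21 gained (42.9%), where 48.7% and 35.7% of the whole lists were. The lost peaks had the lower total signal, with medians above 40.9% (lost at W1) and 45.5% (lost at W2) of the D0 list, and the others medians above 66.7% and 65.4%. The share lost at W1 had a 95% Wilson interval of 18.8% to 55.1%, which includes the value of the whole list.

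Over the elements, 22 had MLL3/4 at D0, and 12 of them also had it at both W1 and W2. Of these 12, 9 (11, 13, 16, 18, 19, 25, 26, 38 and 42) also had SOX9 at some week and 3 (12, 15 and 17) did not. SOX9 peaks took part in forming the elements, so this count is not independent of SOX9. In element 19 a SOX9 peak joined MLL3/4 peaks that did not overlap, and in element 25 the D0 peak lay off SOX9. MLL3/4 of D0 was listed at neither W1 nor W2 at 6 elements (6, 24, 28, 32, 37 and 39), and 4 had it at W1 only (8, 10, 14 and 27), and none of these 10 had SOX9 in skin. Counted as peaks that overlap directly, 7 of 9 D0 peaks on a SOX9 peak of W1 to W12 had MLL3/4 at both weeks, against 70.2% in the whole list, the other 2 being the peak of element 19 and 1 of a pair in element 26. Of the D0 peaks off SOX9, 4 of 14 did, against 15.5% in the whole list. The split between sites with and without SOX9 had the same direction at the locus and genome-wide.

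The lost elements were not all weak before induction. Element 10 (chr16:25765707-25766276) in intron 3 stood above 83.9% of the D0 list, above 8.01% at W1 and was not listed at W2. Element 14 (chr16:25786385-25787038), also in intron 3, stood above 85.0% at D0 and 72.8% at W1 and was not listed at W2. Elements 8 and 27 stood above 54.0% and 66.7% at D0 and above 26.1% and 19.3% at W1. The 6 elements lost at both weeks stood above 8.31% to 53.4% of the D0 list. Of them, element 24 (chr16:25833605-25833956) in intron 4 stood above 45.5%, element 28 (chr16:25868041-25868309) at exon 9 above 8.31%, and elements 37 (chr16:25911183-25911447) and 39 (chr16:25913368-25913660) downstream above 37.1% and 16.6%. Elements 6 and 32 stood above 44.8% and 53.4%.

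Of the elements without MLL3/4 at D0, 3 (2, 20 and 31) had it at both weeks, and all 3 carried SOX9. The share of such sites with SOX9 over the whole lists was not computed. Element 2 had no MLL3/4 peak at D0, a pair at W1 (coverage maxima of 7 and 19, above 26.4% and 88.3% of the list) and 1 at W2 (13, above 93.9%). The centre of the stronger W1 peak was the same base as that of SOX9, and the W2 centre lay 8 bp from the W2 centre of SOX9. Centres were not this close at every element. At element 31 the W2 centres were at 25890751 for SOX9 and 25890946 for MLL3/4. Element 31 in the last exon was above 70.0% of the list at W1 and 88.1% at W2, and element 20 (chr16:25811507-25812470) in intron 3 above 66.3% and 44.8%. Gains at 1 week were elements 3, 23 and 40 at W1 and 1, 21, 29 and 30 at W2. They stood above 13.4%, 8.62% and 42.4% of the W1 list and above 60.1%, 13.9%, 4.99% and 33.7% of the W2 list, and of these only element 1 had SOX9. Of the gained peaks of W1, 7 of 10 overlapped a SOX9 peak of W1, where 30.5% of all gained W1 peaks did. These 7 lay in elements 2, 19, 20, 25 and 31, with a pair each in elements 2 and 25. Elements 19 and 25 had another MLL3/4 peak at D0, so these peaks are not all separate new sites. Of the gained peaks of W2, 4 of 9 overlapped a SOX9 peak of W2, where 38.5% did. They lay in elements 1, 2, 25 and 31.

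Seen from SOX9, all 12 peaks of W1 overlapped MLL3/4 of W1 and 11 of 12 of W2 overlapped MLL3/4 of W2, where 82.0% and 78.7% of the whole lists did. The exception was the first maximum of element 26 at W2. An MLL3/4 peak of D0 lay under 8 of 12, 8 of 12, 7 of 14 and 5 of 9 SOX9 peaks in the order W1, W2, W6 and W12. The whole lists gave 67.7%, 66.3%, 52.8% and 40.7%.

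Elements 13, 25 and 26 had MLL3/4 in all 7 lists. Element 13 had the highest rank of the locus in 5 of them, the exceptions being D0, where element 42 was higher, and dHMG-SOX9, where element 25 stood above 96.8% of the list. It stood above 98.4% of the list at D0, 97.8% at W1 and 99.5% at W2, ranking 574th, 698th and 142nd. Its MLL3/4 centres at D0 and W2 lay 4 and 3 bp from the W2 centre of SOX9. In culture it stood above 92.8% of the list without DOX and above 91.5%, 91.8% and 89.6% of the WT-SOX9, dTA-SOX9 and dHMG-SOX9 lists. Element 42 stood above 98.9%, 97.3% and 94.6% at D0, W1 and W2. In culture it stood above 78.5% without DOX, 30.8% with dTA-SOX9 and 1.23% with WT-SOX9, and had no peak with dHMG-SOX9.

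**Figure D3:**
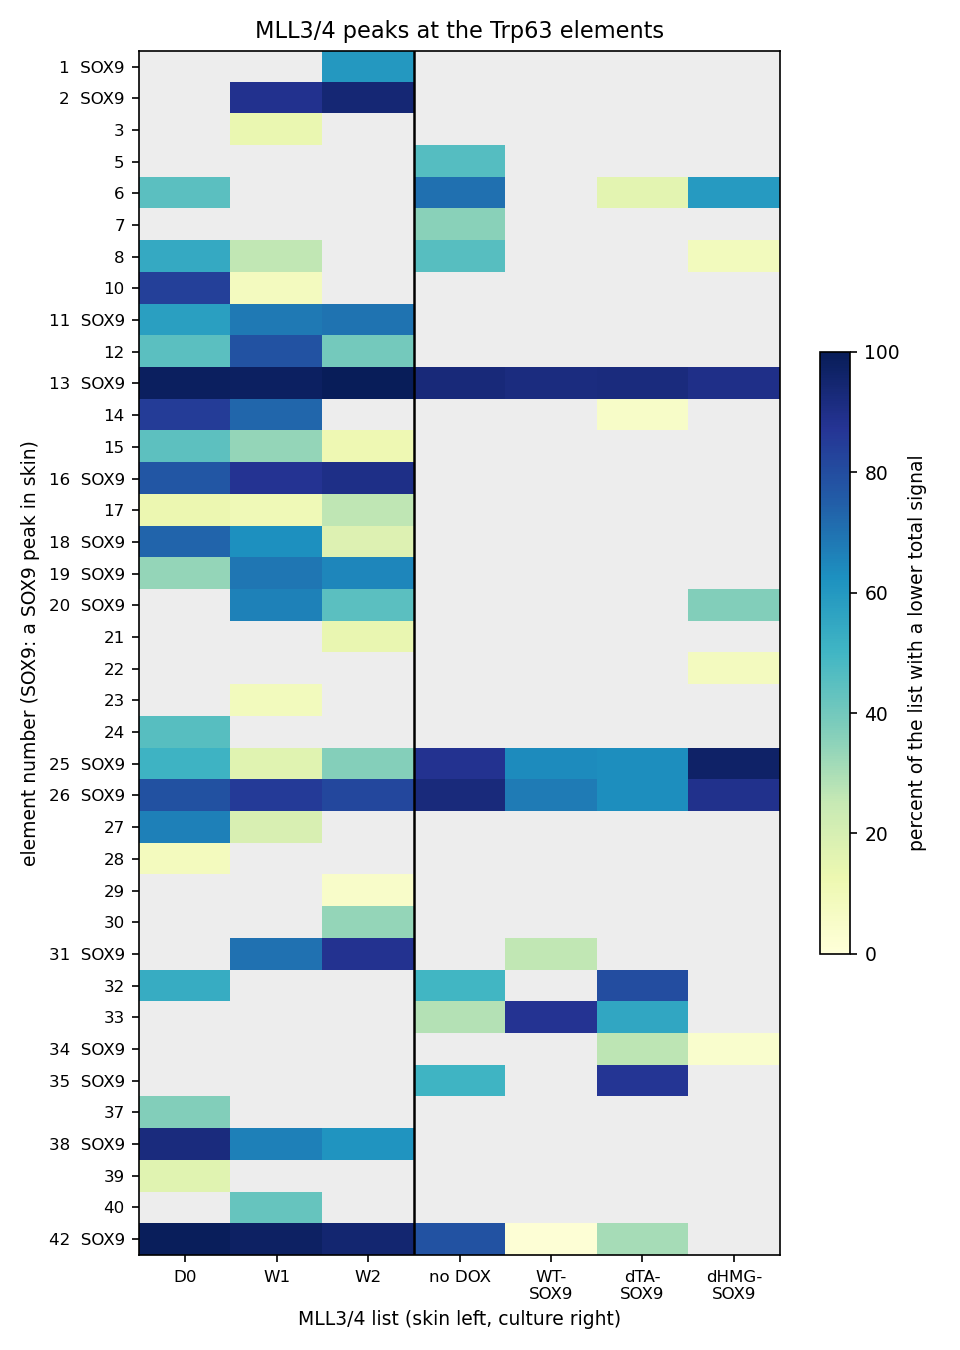
Rank of the MLL3/4 peak of each element, as the percent of peaks of the same list with a lower total signal (colour, 0 to 100), in the 3 skin lists (left of the line) and the 4 culture lists (right). Grey means no listed peak, the strongest peak is used where a list has several, and elements marked SOX9 had a SOX9 peak in skin. Element 13 is dark in all 7 lists, while elements 11 to 20 apart from 13 are mostly grey in culture.

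Of the 32 elements with MLL3/4 in skin, 10 also had it in culture, and 6 of the 16 culture elements had none in skin. As peaks, 8 of 23 at D0 overlapped a peak of the cultured cells without DOX, where 40.4% of the whole D0 list did. The stretch from element 15 to element 19, which holds the short-transcript start, had MLL3/4 in all 3 skin lists at each of its 5 elements and in none of the culture lists. The culture peaks lay at elements 5 to 8 in intron 1, at 13, 14 and 20 in intron 3, at 22, 25 and 26 in intron 4, at 31 in the last exon and at 32 to 35 and 42 downstream. By the labels these are keratinocytes in both settings. Besides *Trp63* itself, a peak of MLL3/4 within 1 kb of an annotated start was found at 5 of 5 keratinocyte genes (*Krt5*, *Krt14*, *Itga6*, *Col17a1*, *Dsg3*) at D0, W1 and W2, and at 4, 2, 5 and 4 of them in culture without DOX and with WT-SOX9, dTA-SOX9 and dHMG-SOX9. Only the WT-SOX9 list lacked one at *Krt5* and *Col17a1*, and *Itga6* had one in culture with dTA-SOX9 only. No haematopoietic gene of 4 had one in any list, and no list had more than 1 of 4 fibroblast, endothelial, melanocyte or hair follicle stem cell genes.

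In culture, MLL3/4 without DOX was at 12 peaks, and with WT-SOX9 6 of them were lost (50.0%) and 1 of 8 peaks was gained (12.5%), where 82.0% of all no-DOX peaks were lost and 41.8% of all WT-SOX9 peaks gained. The WT-SOX9 list is the smallest, with 10543 peaks against 33975, and the labels of both its samples describe replicate 2. With the no-DOX list reduced to its 10543 peaks of highest total signal, 1 of 6 no-DOX peaks was lost (16.7%), where 58.3% of the reduced list were. The reduced list holds only peaks of high total signal, so list size and signal cannot be told apart here. With the reduced list 25.0% of WT-SOX9 peaks were gained, and likewise when an overlap had to cover 50% of the shorter peak. With dTA-SOX9, 3 of 12 were lost (25.0%) and 2 of 13 gained (15.4%), where 44.3% and 26.1% were over the whole lists. Without replicate 2 of the no-DOX samples, 41.2% were lost with dTA-SOX9. With dHMG-SOX9, 6 of 12 were lost (50.0%) and 3 of 8 gained (37.5%), where 43.5% and 16.7% were. The 6 no-DOX peaks kept with WT-SOX9 had a median above 83.9% of the list and the 6 lost a median above 47.7%.

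The elements lost with WT-SOX9 were 5, 6, 7, 8, 32 and 35, and those kept were 13, 25, 26, 33 and 42. As peaks, 4 of 6 kept and 1 of 6 lost overlapped a SOX9 peak of skin, where 72.2% of all kept and 34.6% of all lost no-DOX peaks did, so the split had the same direction over the whole list. Element 6 (chr16:25725332-25725808) in intron 1 had MLL3/4 at D0 but at neither week in skin. In culture it stood above 70.4% of the list without DOX, 59.1% with dHMG-SOX9 and 15.8% with dTA-SOX9, and had no peak with WT-SOX9. Element 32 (chr16:25899096-25899658) downstream was likewise listed at D0 and not at W1 or W2, and in culture without DOX (above 49.7%) and with dTA-SOX9 (above 80.0%) but not with WT-SOX9 or dHMG-SOX9. The 1 gain with WT-SOX9 was element 31 (above 25.8%), which also gained MLL3/4 in skin. Gains with the other forms were elements 14 and 34 with dTA-SOX9 and 20, 22 and 34 with dHMG-SOX9. Replicate 1 without DOX had a peak in element 20 that overlapped the one with dHMG-SOX9, so without replicate 2 that gain ended and 25.0% of the dHMG-SOX9 peaks were gained, and it had a peak in element 14 that did not overlap the one with dTA-SOX9.

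**Figure D4:**
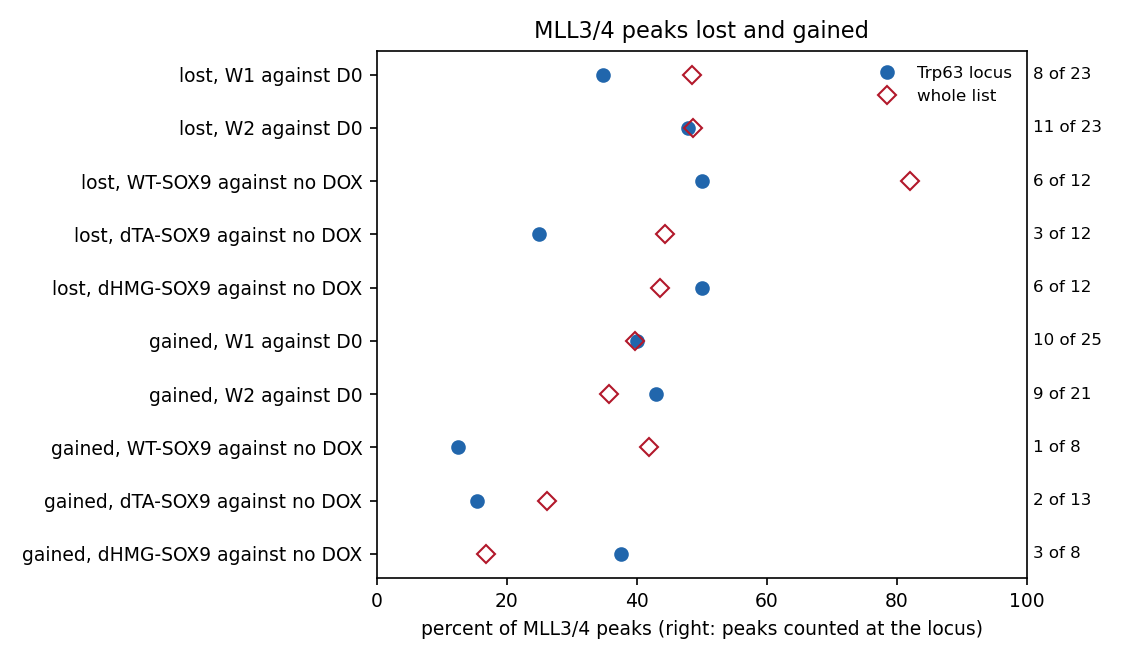
Percent of MLL3/4 peaks lost (upper 5 lines) and gained (lower 5 lines) in each comparison, at the *Trp63* locus (filled circles, with the counts at the right) and over the whole list (open diamonds). In skin, 34.8% were lost at W1 at the locus against 48.5% in the list, and in culture 50.0% were lost with WT-SOX9 at the locus against 82.0% in the list.

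The MYC tag marks the transgenic SOX9 of the cultured cells. With WT-SOX9 it was listed at elements 4 and 41 only. Element 4 (chr16:25714958-25715021) in intron 1 was 64 bp wide and was also listed with dHMG-SOX9, which lacks the DNA-binding domain, at 2478 RPKM (10 fragments, 1188 to 4557) against 2298 RPKM with WT-SOX9 (14 fragments, 1256 to 3856). Element 41 (chr16:25933538-25933706), next to element 42, had 1806 RPKM and 11 fragments (901 to 3231). Neither was a SOX9 element in skin, and 0 of the 12 W1 SOX9 peaks of skin overlapped a WT-SOX9 MYC-tag peak, where 15.4% of the whole W1 list did.

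With dTA-SOX9 the MYC tag was at 10 elements (6, 7, 13, 25, 26, 32, 33, 34, 35 and 42), where the list is also the largest of the MYC tag, with 11341 peaks against 6671 with WT-SOX9, 3980 with dHMG-SOX9 and 2242 without DOX. They include element 7 (chr16:25753746-25754009) in intron 1, and elements 33 (chr16:25900226-25901081), 34 (chr16:25902401-25902769) and 35 (chr16:25905225-25906191) downstream of the gene. Its maxima ran from 1846 RPKM at element 7 (9 fragments) to 3487 RPKM at element 33 (17 fragments, 2031 to 5583). Between them, element 34 had 3282 RPKM, elements 6 and 35 each had 2872, elements 26, 32 and 42 each had 2666.5, element 25 had 2461 and element 13 had 2051. With so few fragments the intervals of all 10 overlapped. Of the 10 peaks, 8 overlapped MLL3/4 without DOX, 9 overlapped MLL3/4 with dTA-SOX9 and 3 overlapped SOX9 of W1 in skin, where 68.3%, 71.9% and 27.4% of the whole dTA-SOX9 list did. Without DOX the MYC tag was at element 26 (2226 RPKM, 11 fragments, 1111 to 3984), which had the tag with dTA-SOX9 844 bp away. By the RPKM of 1 fragment, the pooled MYC-tag lists rested on 4.04 to 6.09 M fragments, so that 8 to 11 fragments at a position sufficed to pass 1800 RPKM. The pooled SOX9 lists rested on 13.1 to 32.5 M, where 24 to 59 were needed. The lists also differ in their lowest total signal, 205320 with dTA-SOX9 against 77156 with WT-SOX9 and 90203 with dHMG-SOX9, so an element missing from a MYC-tag list is not shown to be free of the protein.

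Density was taken as peaks per 100 kb. The SOX9 density of the *Trp63* window (3.89, 3.89, 4.54 and 2.92 peaks per 100 kb at W1, W2, W6 and W12) was above that of 94.9%, 91.0%, 93.9% and 98.0% of protein-coding genes taken with 50 kb to each side. For MLL3/4 in skin it was above 90.9% at D0, 97.5% at W1 and 94.6% at W2. In culture it was above 76.9% without DOX and above 94.3%, 88.0% and 72.6% in the WT-SOX9, dTA-SOX9 and dHMG-SOX9 lists. For the MYC tag it was above 97.5% with dTA-SOX9, 74.0% with WT-SOX9 and 71.9% with dHMG-SOX9. A single peak was enough for 94.3% in the short SOX9 list of D0 and 80.8% in the MYC-tag list without DOX, so these percentages depend on how many genes have no peak.

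A list of 21 genes of the p53 family or known as p63 targets in epidermis was counted in the same windows. A SOX9 peak was near 17, 20, 20 and 17 of them in the order W1, W2, W6 and W12, and an MLL3/4 peak of D0 near all 21. Of all protein-coding genes 52.4%, 57.5%, 58.7%, 39.8% and 71.7% had one. The medians of the list were 5, 5, 4, 2 and 10 peaks per gene, beside 1, 1, 1, 0 and 2 over all genes, and *Trp63* had 12, 12, 14, 9 and 23 in a longer window than most. The desmosomal gene *Perp* had 8 SOX9 peaks at W1 and 14 at W2, the basal keratin gene *Krt14* 8 and 12, and the hemidesmosome integrin genes *Itga6* and *Itgb4* 10 and 11, and 8 and 11. The paralogue *Trp73* had 0 at W1 and 5 at W2, *Trp53* 3 and 4, and the chromatin organizer *Satb1* 1 and 0. D0 MLL3/4 peaks were most numerous near *Ripk4* (22), a kinase gene of epidermal differentiation, and *Perp* (19).

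The genes whose peak numbers were distributed over the 16 lists most like those of *Trp63* were *Fbxo36* (Pearson r = 0.888), *Prkch* (0.861), *Cast* (0.851), *Psd3* (0.836) and *Cnst* (0.827), among 10178 genes with at least 20 peaks over the lists, whose median r was -0.114. The r was taken over the 16 lists from log2 of 1 plus the peaks per 10000 of a list, and is a description over lists that share antibodies and cells. *Prkch*, the gene of protein kinase C eta of stratified epithelia, had 10, 10, 12 and 8 SOX9 peaks at W1, W2, W6 and W12 and 9 dTA-SOX9 MYC-tag peaks. At W1 and W6, *Fbxo36* had 4 and 5 SOX9 peaks, *Cast* 5 and 8, *Psd3* 6 and 10, and *Cnst* 9 and 5.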

How the data were processed

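SOX9, MLL3/4 and MYC-tag CNR peaks were read from 16 lists of pooled replicates (32 of 41 samples) and 2 lists of replicate 1 without DOX. The other 9 samples (JUN, ARID1a, BRG1) were not analysed here. Per the submitters' processing notes and the study's methods, the authors used Skewer for trimming, Bowtie2 2.2.9 for alignment to mm10, Picard against duplicates and SAMtools 1.3.1 to select fragments up to 120 bp and to combine replicates. They made RPKM tracks with deepTools 3.1.2 and called peaks with SEACR in stringent mode at 0.01. In the deposited lists the total signal of a peak is a score, the sum of signal over its bases. The maximum is in RPKM as the authors computed it for SOX9, the MYC tag (both above 1800) and replicate 1, and unscaled whole-number coverage signal in the pooled MLL3/4 lists as deposited. MLL3/4 values were therefore compared only as ranks within a list.

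Lists were analysed with Python 3.11.15, pandas 2.3.3, numpy 2.4.6 and SciPy 1.17.1, with GENCODE vM21 and GRCm38.p6, which is the mm10 build. The 20 mitochondrial peaks over all lists were left out. Overlap meant at least 1 bp. The RPKM of 1 fragment was the largest step of which all maxima were whole multiples (100% within 0.05 of a whole number), with exact 95% Poisson intervals on the fragments, which cover counting error only. The depth of a pooled list was derived from the RPKM of 1 fragment, not counted from reads, and that of the MLL3/4 lists is unknown. Overlap, merging, step and word functions were tested on simulated data. Words were sought on both strands within 50 bp of each maximum.

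The locus, gene lists, words and comparisons were chosen with earlier results of these data known. Described in full were elements at a *Trp63* start, with the 5 highest SOX9 maxima, with SOX9 at D0, with MLL3/4 differing between D0 and both weeks, or with a WT-SOX9 or dTA-SOX9 MYC-tag peak, together with the 5 genes of most similar peak numbers. Alternatives were windows of 10 kb or the gene body, 3600 RPKM, the top 50% of each list, merging within 500 bp, replicate 1 alone, 50% overlap, lists of equal size and words within 100 bp to each side of a maximum.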

Additional observations from a re-analysis of the deposited data

Results flagged for a closer look

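The lists of replicate 1 without DOX served only as an alternative to the pooled lists and held 2 peaks at the locus that lay in none of the 42 elements. In MLL3/4 CNR a peak at chr16:25843034-25843183 in intron 4, beside element 26, reached 585 RPKM on 5 fragments (exact 95% Poisson interval 190 to 1364) and had the lowest total signal of its list. In MYC-tag CNR a peak at chr16:25853530-25853614 in intron 4 reached 1582 RPKM on 4 fragments (431 to 4050), above 21.6% of its list by total signal. Neither was in the pooled list. As maxima of called peaks these values were chosen for being high.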

How the results depend on the processing

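Across 29 results and 121 alternative values, 83 stayed within 1.5 times a count or the 95% binomial interval of a share and 38 moved further. A change of direction was not looked for. Merging of peaks within 500 bp and an overlap of 50% of the shorter peak moved none past these limits, but the latter took the WT-SOX9 gain from 12.5% to 25.0%, within the wide interval of 8 peaks (2.24% to 47.1%).

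With the window of 10 kb, SOX9 peaks numbered 0 at D0, 9 at W6 and 4 at W12, and WT-SOX9 MYC-tag peaks 1. In the gene body alone they numbered 0, 9, 4 and 1, with 8 dTA-SOX9 MLL3/4 and 5 dTA-SOX9 MYC-tag peaks. Above 3600 RPKM, SOX9 peaks numbered 0, 6, 6, 5 and 2 from D0 to W12, and the MYC-tag lists had 0 each without DOX and with WT-SOX9, dTA-SOX9 and dHMG-SOX9. In the top 50% of the lists there were 23 elements, 7, 8 and 5 SOX9 peaks at W1, W6 and W12, and 13, 13 and 10 MLL3/4 peaks in skin in the order D0, W1 and W2. The same lists gave 7, 5, 7 and 4 MLL3/4 peaks in culture without DOX and with WT-SOX9, dTA-SOX9 and dHMG-SOX9, and 0, 6 and 0 MYC-tag peaks with WT-SOX9, dTA-SOX9 and dHMG-SOX9. With SOX9 lists of equal size, chosen after the list sizes were seen, W1, W2, W6 and W12 had 9, 8, 8 and 9 peaks. With lists of equal size, 16.7% of no-DOX MLL3/4 peaks were lost with WT-SOX9. Without replicate 2, the MYC tag had 2 peaks without DOX. SOX words were in 3 SOX9 windows within 100 bp, and the core ATTGT in 19 within 50 bp. Fewer peaks or bases were counted in each of these settings by construction, except in the last 3.

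No paired analysis was possible because each group is 1 pooled list and no result comes from a test. The depth of 4.04 to 6.09 M fragments limits the MYC-tag lists, and that of the MLL3/4 lists is unknown.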
